A study of Rattus norvegicus with 9 samples.

Results

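The genes described here are 42 genes of the cell division cycle and of DNA replication: the MCM helicase that licenses replication origins, enzymes that copy DNA and supply nucleotides, the cyclins and cyclin-dependent kinases, the mitotic kinases and checkpoint proteins, and the motors and scaffolds of the spindle and of cytokinesis. They were chosen by name, and a probe set counted for a gene where the array annotation gave it that 1 symbol and no other. By that rule 40 of the 42 genes were measured, of 14218 genes in all, on 57 probe sets. Rrm2 (the small subunit of ribonucleotide reductase) was present only on 2 probe sets shared with a second symbol, and Tpx2 had no probe set under its symbol. Of the 57 probe sets, 50 passed a filter on dim probe sets and were tested, and each of the 40 genes kept at least 1. Where a gene had several, the probe set with the highest mean over all arrays stands for it in counts over genes.

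RNA came from the cerebral cortex of Hsd:Sprague Dawley SD rat pups on postnatal day 4, 1 pup from each litter, and was hybridised to Affymetrix Rat Genome 230 2.0 arrays. The 3 groups had 3 arrays each: control (0 ppm), 750 ppm and 2500 ppm of 4-methylimidazole (4-MeI, a by-product of caramel colouring) in the diet. The grandparental animals received the diets from before mating, and exposure went on across pregnancies and generations, so that the pups, from F2b litters, were exposed through their dams. All groups shared strain, age, tissue and array type, the sex of the pups was not given, and maternal seizures, named in the study's title, are not given by litter in the labels.

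In the rodent cortex of the first postnatal week most neurons have left the cell cycle, while glial progenitors, remaining progenitors next to the ventricles, endothelial cells and microglia still divide. Origins are licensed in G1 when the MCM complex is loaded onto DNA, cyclin D and cyclin E kinases then release E2F factors from the retinoblastoma proteins, and genes for DNA synthesis are transcribed. Genes for mitosis follow later, through the MuvB complex with B-Myb and FOXM1, which binds CHR elements in their promoters, often beside CCAAT boxes bound by NF-Y. In a piece of tissue, fewer dividing cells and less RNA of these genes per cell cannot be told apart.

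Many of the members' promoters hold letters of these motifs, and 5 are printed: an S phase gene, 3 mitotic genes with matches and 1 mitotic gene without. RefSeq promoters of GRCr8, from 250 bases before to 50 after the start, were matched for 33 of the 40 genes (34 promoters). Not matched were Aurkb, Ccna2, Ccnd1, Ccnd2, Foxm1, Mcm4 and Ube2c. The letters searched, on both strands, were TTTGAA and TTCGAA for the CHR element, CCAAT for the NF-Y box, and TTTCCCGC, TTTCGCGC, TTTGCCGC and TTTGGCGC for E2F. TTCGAA is its own reverse complement. Each sequence runs 5′ to 3′ on the gene's strand, and capitals mark matches, so that ATTGG and TTCAAA are matches on the opposite strand. Mcm2 lies at chr4:122918045-122918344 (minus strand), Cdk1 at chr20:19265043-19265342 (plus), Mki67 at chr1:199952544-199952843 (minus), Top2a at chr10:84473044-84473343 (minus) and Aurka at chr3:181560720-181561019 (minus).
Mcm2: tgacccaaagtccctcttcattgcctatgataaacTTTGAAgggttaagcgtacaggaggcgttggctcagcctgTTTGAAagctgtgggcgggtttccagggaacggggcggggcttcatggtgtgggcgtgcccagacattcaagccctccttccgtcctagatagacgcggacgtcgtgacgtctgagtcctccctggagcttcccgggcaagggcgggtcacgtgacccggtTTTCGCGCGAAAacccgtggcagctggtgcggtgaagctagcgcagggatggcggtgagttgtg
Cdk1: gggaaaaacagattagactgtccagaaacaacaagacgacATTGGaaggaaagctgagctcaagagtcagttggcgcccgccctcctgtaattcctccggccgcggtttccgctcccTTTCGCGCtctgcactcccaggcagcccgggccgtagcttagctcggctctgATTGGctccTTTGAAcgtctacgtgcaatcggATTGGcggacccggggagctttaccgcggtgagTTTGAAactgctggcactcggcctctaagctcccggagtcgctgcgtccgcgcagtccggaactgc
Mki67: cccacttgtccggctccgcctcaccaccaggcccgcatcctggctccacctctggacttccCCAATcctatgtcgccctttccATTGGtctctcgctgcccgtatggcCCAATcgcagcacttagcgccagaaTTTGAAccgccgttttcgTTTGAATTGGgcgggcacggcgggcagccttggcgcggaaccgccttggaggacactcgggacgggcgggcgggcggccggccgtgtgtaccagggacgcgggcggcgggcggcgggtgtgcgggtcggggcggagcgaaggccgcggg
Top2a: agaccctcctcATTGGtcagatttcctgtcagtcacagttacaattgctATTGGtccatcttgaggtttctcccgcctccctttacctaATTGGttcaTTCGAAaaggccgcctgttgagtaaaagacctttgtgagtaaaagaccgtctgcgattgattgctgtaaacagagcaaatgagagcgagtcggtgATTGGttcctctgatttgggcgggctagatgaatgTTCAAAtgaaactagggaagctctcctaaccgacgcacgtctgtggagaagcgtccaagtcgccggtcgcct
Aurka: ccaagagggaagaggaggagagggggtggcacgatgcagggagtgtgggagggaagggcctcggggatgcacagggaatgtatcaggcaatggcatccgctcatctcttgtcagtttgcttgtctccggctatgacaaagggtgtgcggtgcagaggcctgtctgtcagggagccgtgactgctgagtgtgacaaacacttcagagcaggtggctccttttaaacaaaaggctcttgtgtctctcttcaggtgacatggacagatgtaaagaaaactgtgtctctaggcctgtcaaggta

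In Mcm2, a pair of E2F matches on opposite strands overlap in TTTCGCGCGAAA, and in Mki67 a CHR and a CCAAT match overlap in TTTGAATTGG. Aurka is shown as a mitotic gene whose window, set by an annotated start, holds none of these letters. That start was not checked, so the window does not show that the Aurka promoter lacks them. It is counted among the G2 and M promoters. Among the G2 and M members, 15 of 22 promoters (68.2%) held a CHR element, 15 (68.2%) a CCAAT box and 13 (59.1%) both, and 1 (4.55%, that of Cdk1) held an E2F match. Among the S phase members, 6 of 9 (66.7%) held an E2F match, which included all 5 MCM promoters matched, and 3 (33.3%) held a CHR element. Over all 33469 promoters of the same length the shares were 19.7% for CHR, 37.5% for CCAAT, 7.95% for both and 2.14% for E2F. These are matches of letters and not measured binding.

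The values are log2 RMA intensities, in which a difference of 1 is a 2-fold change of intensity, and levels of different probe sets are not compared. Array medians lay between 7.67 and 7.71 and arrays of 1 group correlated at 0.988 or above over the tested probe sets. Over all tested probe sets, control replicate 3 and 750 ppm replicate 3 stood apart from their groups. On the first principal component (35.6% of the variance) control replicate 3 scored -25.2, against -8.6 and -9.5 for the other control arrays. There 750 ppm replicate 3 scored 15, against -6.0 and -11.3 for its group, which lies within the range of the 2500 ppm arrays (10.3 to 18.8). Results that rest on these arrays are given with and without them below. Markers of neighbouring tissue also differed between the groups. The mean level of 13 striatal markers (each centred on its mean over the 9 arrays) was 0.23 to 0.60 in control, -0.68 to 0.50 at 750 ppm and -0.78 to -0.09 at 2500 ppm. That of 15 meningeal markers was -1.17 to -0.18, 0.34 to 0.60 and -0.03 to 0.43, and that of 8 choroid plexus and ependyma markers was -0.71 to -0.55, -0.45 to -0.26 and 0.23 to 1.42. The 11 markers of immature neurons were at a mean log2 level of 12.11 to 12.44 on the 9 arrays.

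The leading question is whether the cell cycle genes as a set stood higher or lower with the diet. In none of the 3 comparisons did a member pass an adjusted p of 0.05 (limma, two-sided, Benjamini-Hochberg over 21729 probe sets). At 750 ppm against control 0 of 50 member probe sets passed, where 2 of all tested did (0.00920%). At 2500 ppm against control it was again 0 of 50, against 149 of all (0.686%), and for 2500 ppm against 750 ppm 0 of 50, against 70 of all (0.322%). The smallest adjusted p of a member was 0.201, 0.121 and 0.268 in that order. Each pair of comparisons shares the 3 arrays of 1 group, so they are not independent of each other.

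The differences were small for most members. Over the 40 genes the median log2 difference was -0.05 at 750 ppm, -0.04 at 2500 ppm and 0.00 between the doses, where the medians of all tested probe sets were 0.00, 0.01 and -0.01. Without 750 ppm replicate 3 the medians of the members were 0.08 at 750 ppm and -0.12 between the doses. The median at 750 ppm was -0.12 without control replicate 3 and -0.01 without both of these arrays. Within 0.25 of 0 lay 37 of 40 genes (92.5%) in each comparison with control and 39 (97.5%) between the doses, beside 90.2%, 86.3% and 89.6% of all tested probe sets. The 95% interval of the difference stayed within 1.5-fold either way for 34, 34 and 39 of the 40 genes. Its median half-width was 0.26, wider than the 0.19 of all tested probe sets, as the members varied more within groups (median SD 0.159 against 0.108). An unadjusted p under 0.05 was found for 3 of 50 member probe sets (6%) at 750 ppm, 3 (6%) at 2500 ppm and 1 (2%) between the doses, below the 10.1%, 16.0% and 12.6% of all tested probe sets. At 750 ppm 1 of the 3 was higher (5.77% of all tested) and 2 were lower (4.37% of all). At 2500 ppm all 3 were lower (9.12% of all), as was the 1 between the doses (7.33% of all).

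**Figure D1:**
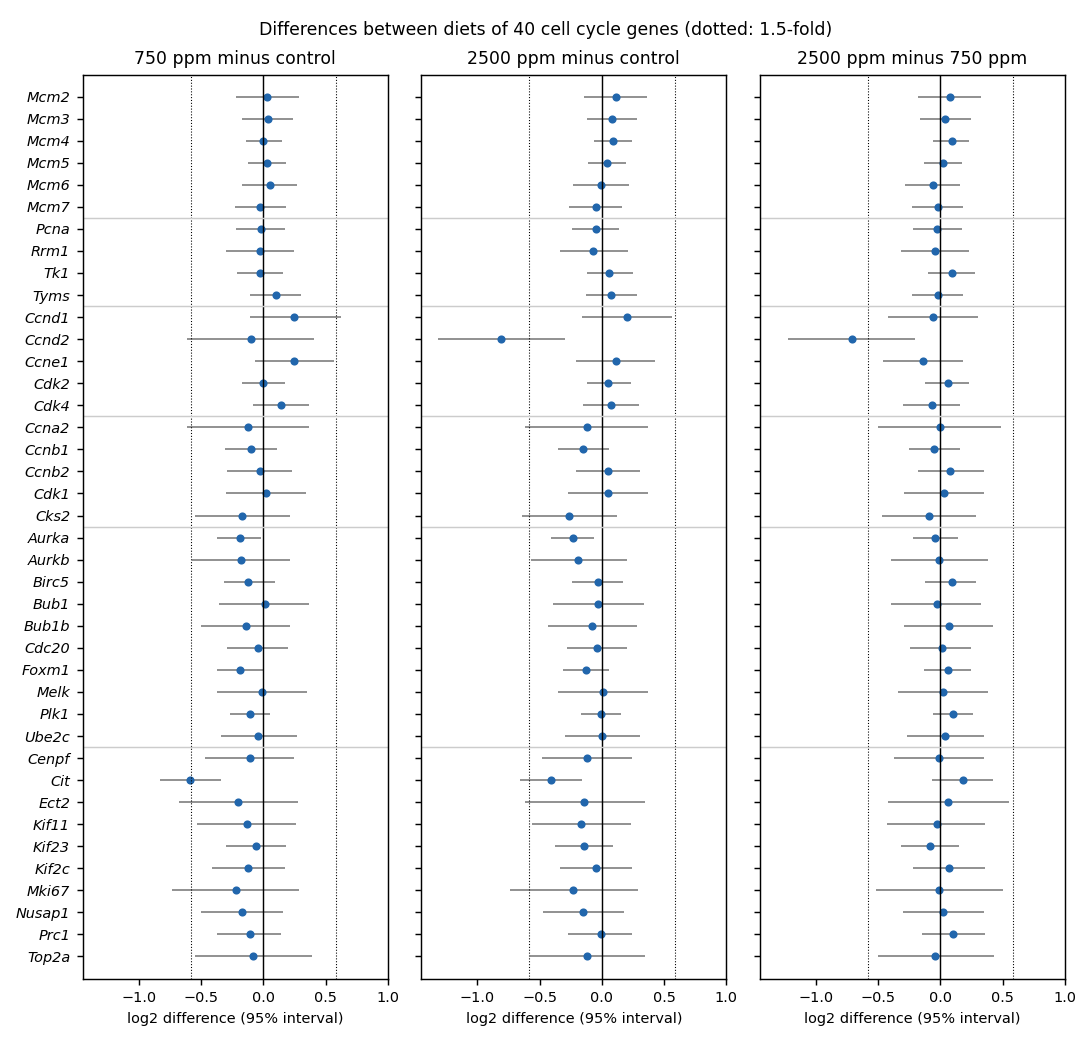
Log2 difference (horizontal axis) of each of the 40 member genes in the 3 comparisons with its 95% interval from limma, grouped by role. Most genes lie near 0, and Cit (citron kinase) and Ccnd2 (cyclin D2) lie farthest below it, at -0.59 in 750 ppm minus control and at -0.81 in 2500 ppm minus control.

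The helicase that opens replication origins differed little between the groups. Mcm2, a subunit of the hexamer, read 8.43, 8.42 and 8.07 in the control arrays, 8.49, 8.38 and 8.15 at 750 ppm and 8.38, 8.45 and 8.42 at 2500 ppm. Control replicate 3 and 750 ppm replicate 3 were low, and all groups overlapped. Mcm2 differed from control by 0.03 at 750 ppm and 0.11 at 2500 ppm (adjusted p of all 6 subunits at least 0.539). Mcm4 read 10.37, 10.38 and 10.29 in control, 10.38, 10.29 and 10.38 at 750 ppm and 10.49, 10.49 and 10.33 at 2500 ppm, a difference between the doses of 0.09 (SE 0.07, adjusted p = 0.636). Over Mcm2 to Mcm7 the differences ran from -0.03 to 0.05 at 750 ppm, from -0.05 to 0.11 at 2500 ppm and from -0.06 to 0.09 between the doses, with intervals within 1.5-fold for all 6.

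Genes for DNA synthesis and its precursors also differed little. Pcna, the sliding clamp of the replicative polymerases, read 12.22, 12.14 and 12.01 in control, 12.21, 12.16 and 11.93 at 750 ppm and 12.10, 12.09 and 12.03 at 2500 ppm, with overlapping groups and differences of -0.02 and -0.05 from control. Rrm1 (the large subunit of ribonucleotide reductase) differed from control by -0.03 and -0.07, and Tyms (thymidylate synthase) by 0.10 and 0.07. Tk1, thymidine kinase of the salvage pathway, had 3 tested probe sets. The dimmest read 6.43, 6.43 and 6.27 in control, 6.18, 6.32 and 6.43 at 750 ppm and 6.43, 6.55 and 6.48 at 2500 ppm. At 0.18 (SE 0.08, adjusted p = 0.407) it had the second smallest unadjusted p of the members between the doses, while the brightest differed by 0.09. For these 4 genes every interval lay within 1.5-fold in the 3 comparisons.

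The G1 cyclins lay in different directions from control, none past the threshold. Cyclin D2 (Ccnd2), a partner of CDK4 and CDK6 in neural progenitors, read 11.99, 11.58 and 11.70 in control, 11.77, 12.12 and 11.08 at 750 ppm and 10.94, 10.81 and 11.10 at 2500 ppm. All 2500 ppm arrays lay below all controls, and 750 ppm replicate 3 lay inside the 2500 ppm range. The difference from control was -0.81 at 2500 ppm (SE 0.23, 95% interval -1.32 to -0.30, adjusted p = 0.137) and -0.10 at 750 ppm (0.19 without 750 ppm replicate 3), and between the doses it was -0.71 (SE 0.23, adjusted p = 0.268). Without 750 ppm replicate 3 the 2500 ppm difference from control kept its size, -0.81, and passed the threshold (adjusted p = 0.0265), and the difference between the doses was -1.0 (adjusted p = 0.011). The 4 arrays low in Ccnd2 were also the 4 lowest for the striatal markers: 750 ppm replicate 3 at -0.68 and the 2500 ppm arrays at -0.78, -0.09 and -0.54, against 0.23 to 0.60 in the other 5. Of these markers, 13 of 15 were tested and 13 of 13 lay below 0 at 2500 ppm against control, median -0.94, and their part in the Ccnd2 difference was not tested.

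Cyclin D1 (Ccnd1), the other D cyclin of the set, read 9.64, 9.64 and 9.0 in control, 9.66, 9.57 and 9.81 at 750 ppm and 9.73, 9.64 and 9.51 at 2500 ppm on its brightest probe set. Control replicate 3 alone was low, and the groups overlapped. Its 3 probe sets differed from control by 0.22 to 0.28 at 750 ppm and by 0.19 to 0.24 at 2500 ppm. The one with the smallest unadjusted p read 9.26, 9.36 and 8.93 in control, 9.51, 9.36 and 9.51 at 750 ppm and 9.54, 9.44 and 9.28 at 2500 ppm, and stood 0.28 above control at 750 ppm (SE 0.11, adjusted p = 0.464). At 2500 ppm it stood 0.24 above control (SE 0.11, adjusted p = 0.357). Without control replicate 3 these differences were 0.15 and 0.11.

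Cyclin E1 (Ccne1), which drives CDK2 at the start of S phase, read 8.14, 8.16 and 8.28 in control, 8.73, 8.50 and 8.10 at 750 ppm and 8.20, 8.28 and 8.44 at 2500 ppm. Replicates 1 and 2 at 750 ppm were the highest of the 9 arrays and replicate 3 the lowest. The difference from control was 0.25 at 750 ppm (SE 0.14, adjusted p = 0.57) and 0.11 at 2500 ppm, and that between the doses was -0.14 (SE 0.14, adjusted p = 0.729). At 750 ppm it was 0.42 without 750 ppm replicate 3 (adjusted p = 0.125) and 0.11 without 750 ppm replicate 1. Between the doses it ranged from -0.31 to 0.01 when single arrays were left out, the latter without 750 ppm replicate 1. The kinases moved little, Cdk2 by 0.00 and 0.05 and Cdk4 by 0.14 and 0.07 against control.

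Of the 5 genes for the cyclins and the kinase that carry a cell from S phase into mitosis, 4 lay below control at 750 ppm and 3 at 2500 ppm, with medians of -0.10 and -0.12, and none passed the threshold. Without 750 ppm replicate 3, 4 of these 5 lay above control at 750 ppm: Ccna2 at 0.10, Ccnb2 at 0.09, Cdk1 at 0.14 and Cks2 at 0.05, with Ccnb1 at -0.01. Without control replicate 3 as well, the 5 lay between -0.13 (Ccna2) and 0.00 (Ccnb2, Cdk1). Cdk1, the mitotic kinase itself, read 9.52, 9.39 and 9.02 in control, 9.55, 9.35 and 9.09 at 750 ppm and 9.35, 9.31 and 9.41 at 2500 ppm, and differed from control by 0.02 and 0.05. Its activator cyclin B1 (Ccnb1) read 9.11, 9.12 and 8.97 in control, 9.15, 8.97 and 8.79 at 750 ppm and 8.93, 8.87 and 8.96 at 2500 ppm. All 2500 ppm arrays lay below all controls, narrowly (8.96 against 8.97 at the nearest), and the difference was -0.15 (SE 0.09, adjusted p = 0.466). A second Ccnb1 probe set differed by 0.02.

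Cks2, a small CDK-binding protein, read 9.34, 9.09 and 9.05 in control, 9.28, 9.13 and 8.54 at 750 ppm and 8.88, 8.83 and 8.97 at 2500 ppm. The 2500 ppm arrays again lay below the controls without overlap, at -0.26 (SE 0.17, adjusted p = 0.482). Cyclin A2 (Ccna2) and cyclin B2 (Ccnb2) overlapped, with differences of -0.12 and 0.05 at 2500 ppm.

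Of the mitotic kinases and checkpoint genes, Aurka came nearest to a difference. Aurora A, which matures centrosomes and builds the spindle, read 7.93, 7.97 and 7.98 in control, 7.84, 7.81 and 7.64 at 750 ppm and 7.65, 7.66 and 7.87 at 2500 ppm. Every exposed array lay below every control. The difference was -0.19 at 750 ppm (SE 0.08, adjusted p = 0.457) and -0.23 at 2500 ppm (SE 0.08, adjusted p = 0.193), and -0.04 between the doses. Its control arrays differed little (SD 0.03), and it did not share the low value of control replicate 3.

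FOXM1, the factor that activates mitotic genes, read 7.74, 7.71 and 8.02 in control, 7.66, 7.57 and 7.67 at 750 ppm and 7.70, 7.71 and 7.67 at 2500 ppm. The 750 ppm arrays lay below the controls without overlap, at -0.19 (SE 0.08, adjusted p = 0.498), and control replicate 3 was the highest array. Without that array the difference at 750 ppm was -0.09. Plk1, polo-like kinase 1, read 8.80, 8.70 and 8.86 in control, 8.70, 8.73 and 8.60 at 750 ppm and 8.74, 8.71 and 8.88 at 2500 ppm, with overlapping groups and differences of -0.11 (SE 0.07, adjusted p = 0.606) and -0.01 from control and 0.10 (SE 0.07, adjusted p = 0.595) between the doses. The other 7 genes of this role are Aurkb and its partner Birc5 (survivin), the checkpoint kinases Bub1 and Bub1b, Cdc20 and Ube2c of the anaphase-promoting complex, and Melk, a mitotic kinase. They differed from control by -0.18 to 0.01 at 750 ppm and by -0.19 to 0.01 at 2500 ppm, with no adjusted p under 0.193 in the role.

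The spindle and cytokinesis genes lay below control in 10 of 10 at each dose, with medians of -0.13 and -0.14, none past the threshold, and in 5 of 10 between the doses. The direction at 750 ppm depended on which replicate 3 arrays were kept. Without 750 ppm replicate 3 alone Cit was at -0.70, Nusap1 at 0.00 and the other 8 genes between 0.01 (Kif23, Prc1) and 0.18 (Top2a). Without control replicate 3 as well, Cit was at -0.78 and the others between -0.15 (Kif11) and 0.02 (Top2a). Over all 25 G2 and M members, 23 lay below 0 at 750 ppm (median -0.12) with all arrays and 7 without 750 ppm replicate 3 (median 0.04). It was 25 without control replicate 3 alone (median -0.19) and 20 without both (median -0.06). At 2500 ppm 21 of the 25 lay below 0 with all arrays, 24 without control replicate 3 alone and 24 without both. With all arrays 10663 of 21729 tested probe sets lay below 0 at 750 ppm and 10392 at 2500 ppm. The farthest spindle and cytokinesis gene was Cit, citron kinase, which organises the midbody in cytokinesis and also has a neuronal form without the kinase domain. It read 9.57, 9.67 and 9.38 in control, 8.87, 8.81 and 9.18 at 750 ppm and 9.18, 9.07 and 9.13 at 2500 ppm. Every exposed array lay below every control, and here 750 ppm replicate 3 was the highest of its group. The difference was -0.59 at 750 ppm (SE 0.11, adjusted p = 0.201), -0.41 at 2500 ppm (SE 0.11, adjusted p = 0.121) and 0.18 between the doses (SE 0.11, adjusted p = 0.546). Without 750 ppm replicate 3 both differences from control passed the threshold, at -0.70 (adjusted p = 0.0396) and -0.41 (adjusted p = 0.0449). A second Cit probe set was below the filter, between 5.25 and 5.47 on all arrays. Markers of the meninges also separated controls from exposed arrays (15 of 15 above 0 in both comparisons with control, medians 1.23 and 0.85). So did the mean levels of the endothelial, erythroid, pericyte and smooth muscle, choroid plexus and ependyma, and microglia and macrophage markers. The last did so narrowly (-0.07 in control against -0.05 in exposed arrays at the nearest). The part of these markers in the Cit values was not tested.

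Ki-67 (Mki67), the usual stain for cycling cells, read 9.17, 9.32 and 8.80 in control, 9.19, 9.17 and 8.28 at 750 ppm and 8.85, 8.93 and 8.83 at 2500 ppm. Replicate 3 was lowest in control and at 750 ppm, the 2500 ppm arrays were close together, and the groups overlapped. The differences from control were -0.22 (adjusted p = 0.755) and -0.23 (adjusted p = 0.658). The first turned to 0.08 without 750 ppm replicate 3, and was -0.07 without control replicate 3 as well. Topoisomerase II alpha (Top2a), which untangles chromosomes, was likewise lowest in replicate 3 of control and of 750 ppm, with 9.22, 9.21 and 8.74 in control, 9.26, 9.20 and 8.47 at 750 ppm and 9.03, 8.90 and 8.90 at 2500 ppm, and differed by -0.08 (adjusted p = 0.913) and -0.12 (adjusted p = 0.818). Without 750 ppm replicate 3 the Top2a difference at 750 ppm was 0.18, and without control replicate 3 as well it was 0.02. Cenpf of the kinetochore, Ect2 and Kif23 of the cleavage furrow and midzone, the motors Kif11 and Kif2c, and the microtubule bundlers Nusap1 and Prc1 differed by -0.20 to -0.06 at 750 ppm and by -0.17 to -0.01 at 2500 ppm.

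**Figure D2:**
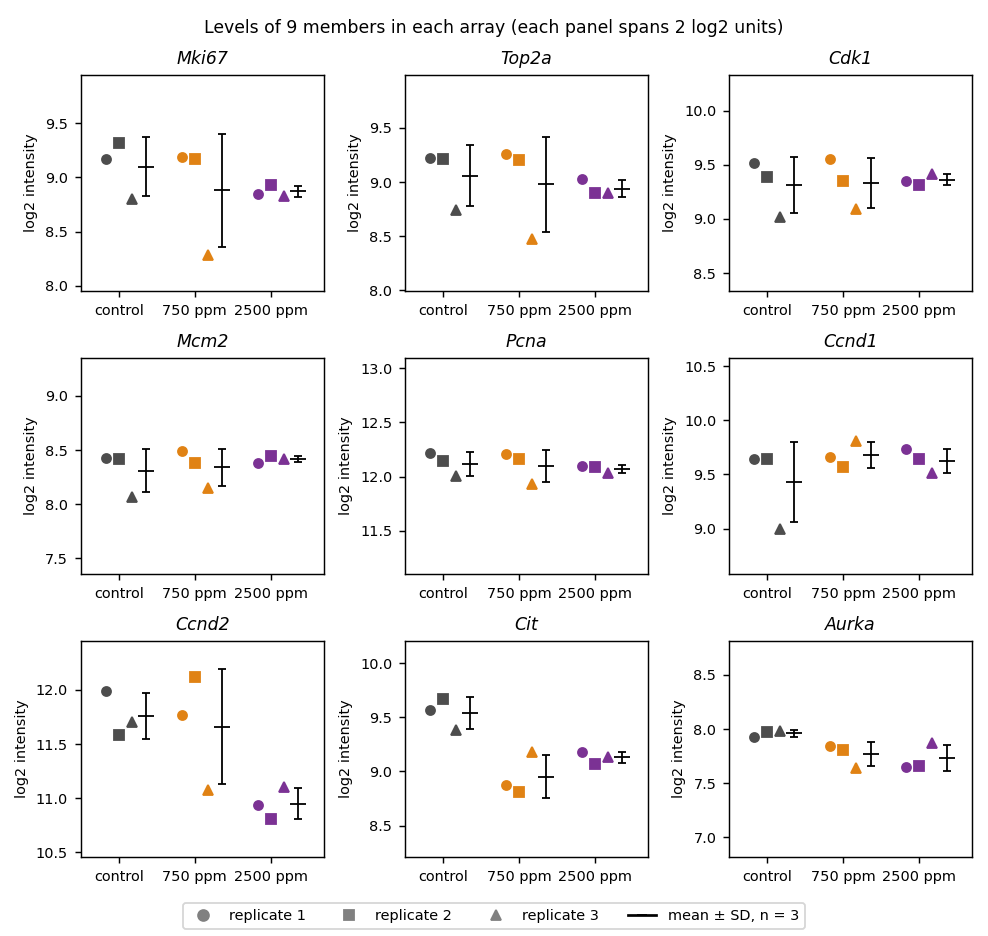
Log2 intensity (vertical axis) of 9 member genes on each of the 9 arrays by group, with a symbol per replicate and bars at the group mean ± SD (n = 3). Ccnd2, Cit and Aurka separate control from the 2500 ppm arrays. Mki67, Top2a, Cdk1, Mcm2 and Pcna are lowest of their group in replicate 3 of control and of 750 ppm.

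Counted over all roles, 4 of 50 member probe sets (8%) did not overlap between 750 ppm and control, all lower at 750 ppm (Aurka, Cit, Foxm1 and a second probe set of Kif23), where 14.2% of all tested probe sets did not overlap and 6.58% were lower. At 2500 ppm against control there were 6 of 50 (12%), all lower (Aurka, Ccnb1, Ccnd2, Cit, Cks2 and a second probe set of Nusap1), beside 23.3% of all and 13.4% lower. Between the doses it was 1 of 50 (2%), Foxm1, higher at 2500 ppm, beside 17.4% of all and 7.88% higher. The shares of the members thus lay below those of all tested probe sets, or near them for the lower direction.

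Much of the members' spread within groups lay in 2 arrays. Control replicate 3 was the lowest of its 3 arrays for 34 of 40 members, where it was lowest for 40.5% of all tested probe sets, with a median of -0.24 against the mean of the other control arrays. For 750 ppm replicate 3 it was 35 of 40 members, against 38% of all, with a median of -0.37. It was the lowest of all 9 arrays for 27 of 40 members, against 12.2% of all tested probe sets. Control replicate 3 was the lowest of the 9 for 9 of 40 members, against 24.2% of all. Over all members no 2500 ppm array stood apart in this way, and their medians against the other arrays of the group were 0.00, -0.01 and 0.00. Of these, 2500 ppm replicate 3 was the lowest of its group for 17 of 40 members, against 30.4% of all tested probe sets. It was the lowest for 8 of 10 S phase members, with a small median gap of -0.07.

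By their medians the gap was wider in G2 and M genes than in S phase genes, a difference that was not tested. For the 25 G2 and M members the median gap was -0.29 in control replicate 3 and -0.46 in 750 ppm replicate 3, which was the lowest of its group for 23 of 25 and the lowest of the 9 arrays for 21. For the 10 S phase members it was -0.18 and -0.24. Ccna2, Ect2 and Kif11 show the size of it, with gaps of -0.69, -0.55 and -0.53 in control replicate 3 and of -0.66, -0.76 and -0.49 in 750 ppm replicate 3. Exceptions were Aurka, Foxm1 and Plk1, which were not low in control replicate 3, and Foxm1 and Cit, which were not low in 750 ppm replicate 3. Ccnd1 was low in control replicate 3 (-0.63) and not in 750 ppm replicate 3 (0.20). The median SD between arrays of a G2 and M member was 0.18 in control, 0.28 at 750 ppm and 0.06 at 2500 ppm, beside 0.10, 0.09 and 0.08 for all tested probe sets.

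**Figure D3:**
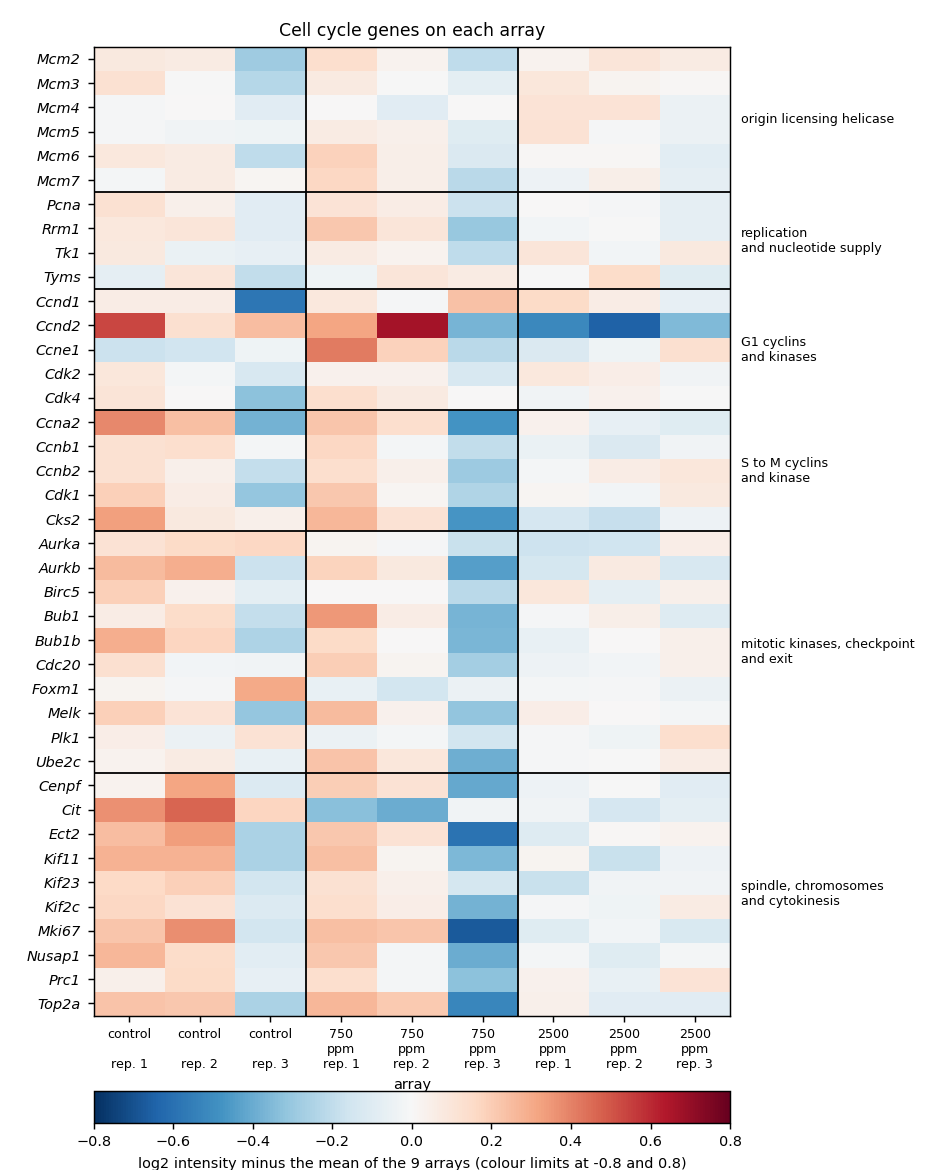
Log2 intensity of each of the 40 member genes (rows, by role) on each of the 9 arrays (columns), minus the gene's mean over the 9 arrays, as colour from -0.8 (blue) to 0.8 (red). The columns of control replicate 3 and 750 ppm replicate 3 are blue for most genes, and the 2500 ppm columns are pale except for Ccnd2.

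Other markers moved with these arrays. In 750 ppm replicate 3 the mean of 16 tested genes of radial glia and intermediate progenitors (of 24 listed) stood at -0.33 against the mean of the 9 arrays, where its group's other arrays stood at 0.16 and 0.13, and striatal markers stood at -0.68 against 0.50 and 0.42. In control replicate 3 the progenitor genes stood at -0.05, against 0.06 and 0.12, and the meningeal markers at -1.17, against -0.18 and -0.71. It was also the lowest array for endothelial (-0.45), microglia and macrophage (-0.28), astrocyte (-0.24) and pericyte and smooth muscle markers (-0.22). In 750 ppm replicate 3 the endothelial markers stood at 0.13 and those of microglia and macrophages at -0.05. Oligodendrocyte progenitor markers stood at -0.24 in 750 ppm replicate 3, against -0.02 and -0.21 in replicates 1 and 2. In control replicate 3 they stood at -0.08, against 0.12 and 0.17. The progenitor genes Eomes, Neurog2 and Tfap2c were below the filter on dim probe sets. The part of tissue make-up in the low cell cycle values was not tested.

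**Figure D4:**
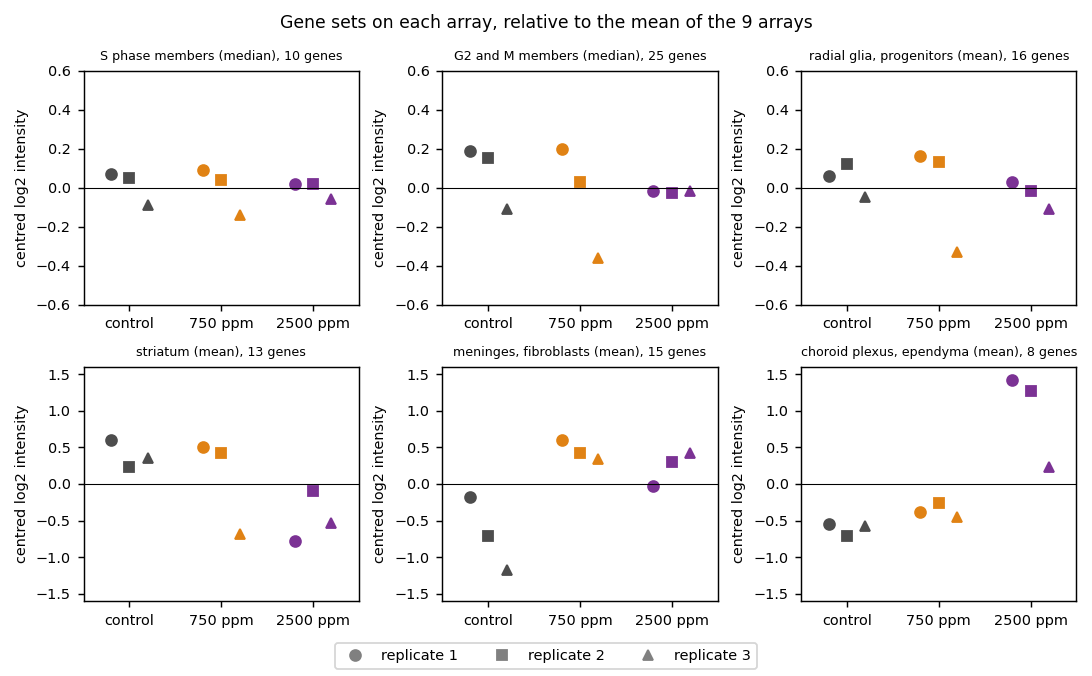
Centred log2 intensity (vertical axis; 0 is the mean of the 9 arrays) of 6 gene sets on each array, by group, with a symbol per replicate. The G2 and M members, the radial glia genes and the striatal genes are all lowest or near lowest in 750 ppm replicate 3, at -0.36, -0.33 and -0.68.

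Leaving out control replicate 3 or 750 ppm replicate 3 raised the mean of its own group for most members, and 750 ppm replicate 3 bears on the comparison of 2500 ppm with control only through the spread that the fit shares between groups. Without both, the 2500 ppm difference from control had an unadjusted p under 0.05 and lay lower for 15 of 40 members (37.5%), beside 10.4% of all tested probe sets. These were 14 of the 25 G2 and M members (56.0%, median -0.22), 0 of the 10 S phase members (median -0.01) and Ccnd2. Only Cit passed the adjusted threshold there (-0.49, adjusted p = 0.0211), while Mki67 was at -0.37 (SE 0.07, adjusted p = 0.0502), Top2a at -0.28 (adjusted p = 0.0875) and Ccnd2 at -0.84 (adjusted p = 0.0533). With all 9 arrays the same count was 3 of 40 (7.50%), beside 9.12% of all. It was 4 of 40 without control replicate 3 alone, where the G2 and M median was also -0.22, and 4 of 40 without 750 ppm replicate 3 alone, where that median was -0.12.

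Between the doses, without these arrays, 4 members passed, beside 1149 of 21729 probe sets, or 5.29% of all tested. Ccnd2 was lower at 2500 ppm (-1.0, adjusted p = 0.0134), as were Mki67 (-0.31, adjusted p = 0.0442) and Top2a (-0.29, adjusted p = 0.0442), and Cit was higher (0.29, adjusted p = 0.0438). For 750 ppm against control 1 member passed, Cit at -0.78 (adjusted p = 0.0135), beside 71 of all (0.327%). The arrays were picked out because they stood apart over all probe sets, and they are also those in which most members were lowest of their group, so these values describe the remaining 7 arrays and are no separate evidence.

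Other genes of the cycle, from lists that hold none of the members, were also without a call, as none of 121 tested genes passed the adjusted threshold in any comparison. Among 36 other S phase genes the medians were -0.03, -0.03 and 0.00 in the order used above, and 2, 4 and 2 had an unadjusted p under 0.05, smaller shares than the 10.1%, 16.0% and 12.6% of all tested probe sets. The 2 at 750 ppm were both lower, beside 4.37% of all tested probe sets that were lower. Rpa1, of the single-strand DNA-binding protein RPA, was at 0.37 at 2500 ppm (SE 0.11, adjusted p = 0.147), and Mcm8, an MCM-like helicase of DNA repair, was at -0.23 (adjusted p = 0.363) and -0.21 (adjusted p = 0.233). Among 48 other G2 and M genes 38 lay below 0 at 750 ppm and 34 at 2500 ppm, with medians of -0.09 and -0.06. In each comparison with control 4 had an unadjusted p under 0.05, smaller shares than those of all tested in both directions together. At 750 ppm all 4 were lower, a larger share than the 4.37% of all tested that were lower. At 2500 ppm 3 were lower, a smaller share than the 9.12% of all, and 1 was higher. Between the doses 32 of the 48 lay above 0 (median 0.02). There 1 had an unadjusted p under 0.05, higher at 2500 ppm, beside 5.25% of all tested that were higher. Smc4, a condensin subunit, was at -0.33 (adjusted p = 0.411) and -0.50 (SE 0.12, adjusted p = 0.0989), and Kif15, a spindle motor, at -0.36 (adjusted p = 0.434) and -0.46 (adjusted p = 0.151). Spc25 of the kinetochore was at -0.36 (SE 0.09, adjusted p = 0.23) and -0.25 (adjusted p = 0.224). Both lists had their lowest array mean in 750 ppm replicate 3, at a log2 level of 8.57 and 8.06.

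Of 20 inhibitors and exit genes, Cdkn1c (p57, a CDK inhibitor of cells that leave the cycle) was farthest from 0. It read 10.35, 9.58 and 9.22 in control, 10.62, 10.59 and 10.44 at 750 ppm and 10.30, 10.51 and 10.53 at 2500 ppm. All 750 ppm arrays lay above the controls, the 2500 ppm arrays overlapped with control replicate 1, and the control arrays spread most. The differences were 0.83 (SE 0.23, adjusted p = 0.26) and 0.73 (SE 0.23, adjusted p = 0.173). Cdkn1a (p21, the inhibitor induced by p53) was at 0.24 at 2500 ppm (SE 0.08, adjusted p = 0.166), and Gadd45a, a stress-induced growth arrest gene, at -0.30 between the doses (adjusted p = 0.222). The medians of the list were -0.01, 0.00 and 0.01.

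Of 17 E2F and G1 regulators, cyclin D3 (Ccnd3) separated all groups: it read 9.07, 8.99 and 9.07 in control, 9.19, 9.19 and 9.20 at 750 ppm and 9.33, 9.27 and 9.22 at 2500 ppm. Against control it was at 0.15 for 750 ppm (SE 0.06, adjusted p = 0.403) and at 0.23 for 2500 ppm (SE 0.06, adjusted p = 0.0976). Mybl2 (B-Myb) was at -0.34 at 750 ppm (SE 0.07, adjusted p = 0.201) and -0.19 at 2500 ppm (adjusted p = 0.236), and Lin9, a MuvB subunit, and Ccne2, the second cyclin E, were both at -0.40 at 2500 ppm (adjusted p = 0.14 and 0.128). E2f1 was at 0.30 between the doses (SE 0.07, adjusted p = 0.156).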

How the data were processed

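The deposited values are log2 probe set intensities made by the authors with affy and RMA, per the submitters' processing notes, which name no versions. RMA corrects background, normalizes the arrays to 1 distribution by quantiles and summarises probes, so a change shared by most genes would not be seen, and dim values are compressed. Of 31099 probe sets, 57 controls and the 30% of the rest with the lowest mean (below 6.35) were left out. The remaining 21729 were fitted in limma 3.58.1 (R 4.3.3) with 1 mean per group over all 9 arrays and empirical Bayes variances. P-values are two-sided and Benjamini-Hochberg adjusted within each comparison, with a threshold of 0.05. With 3 arrays a side the smallest p of an exact permutation test is 0.1. Gene symbols came from the platform annotation. Each array was 1 pup of its own litter, and the number of arrays limits the precision. The script was tested on simulated data.

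The members, their roles, 4 lists of other cell cycle genes and 11 lists of tissue markers were chosen with earlier results of these data known. Values by array are given for the 6 members with the smallest unadjusted p in each comparison and for 9 set genes. The alternatives tried were the filter, centring and a second quantile normalization, array weights, variance options, 1 probe set per gene, only the groups compared, a replicate block and leaving out arrays.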

Additional observations from a re-analysis of the deposited data

How the results depend on the processing

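Members past the adjusted p numbered 0 in each comparison. With array weights (5.61 for control replicate 1, 0.261 for control replicate 3 and 0.379 for 750 ppm replicate 3) they numbered 1 at 750 ppm against control, 2 at 2500 ppm against control and 1 between the doses. With only the groups compared, 1 passed at 2500 ppm against control, and with replicate 3 of control and of 750 ppm both left out the numbers were 1, 1 and 4. Leaving out single arrays gave 0 to 1, 0 to 2 and 0 to 1. Without 750 ppm replicate 3 the 1, 2 and 1 stood beside 48, 466 and 731 of all tested probe sets. Members with an unadjusted p under 0.05 (3, 3 and 1) rose in number in every comparison with array weights, to 9 at 750 ppm against control. They also rose at 2500 ppm against control with only those groups, and between the doses with arrays centred on the median. Without both arrays they numbered 17 and 14 in the comparisons with 2500 ppm. With single arrays left out they ranged from 1 to 4, 2 to 5 and 1 to 8, the 8 and the 5 without 750 ppm replicate 3. Beside the 1 to 4 at 750 ppm, 6.07% to 13.0% of all tested probe sets had such a p. Without 750 ppm replicate 3, 10.9% of all were lower and 7.63% higher at 2500 ppm against control. Between the doses these shares were 10.4% and 7.56%. At 750 ppm with array weights, the 1 past the adjusted p stood beside 1.56% of all tested probe sets, and the 9 of 50 beside 19.8%. Without both arrays, the 1, 1 and 4 stood beside 71, 263 and 1149 of all. There 10.4% of all were lower and 8.13% higher at 2500 ppm against control, and 12.9% and 10.1% between the doses. Counts without such a share are not read as results about the members. The cause was not tested. Over 11 alternatives and 9 left-out arrays, 324 of 338 recomputed values of named members kept direction and side of the threshold, 13 passed it (Cit and Ccnd2), and Ccne1 between the doses reversed to 0.01 without 750 ppm replicate 1 (range -0.31 to 0.01). The median of the members ranged from -0.15 to 0.08, -0.12 to 0.00 and -0.12 to 0.11.

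Same-numbered arrays correlated from -0.21 to 0.31 and 4 of 9 arrays correlated best with their own number. The labels do not say whether the numbers pair arrays across groups. With 3 arrays in each group these correlations cannot decide it, and the arrays were not treated as paired. With a replicate block 0 members passed in each comparison, and 2, 3 and 1 had an unadjusted p under 0.05.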

Other observations

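The lists of other cell types show which tissue markers differed where the cell cycle genes did not pass a test. Of 12 endothelial genes all 12 lay above 0 at 750 ppm and at 2500 ppm against control, median 0.35 in both, and 0 passed the adjusted p. At an unadjusted p under 0.05, 8 and 10 were higher, beside 5.77% and 6.89% of all tested probe sets. Of 12 microglia and macrophage genes 11 and 12 lay above 0 (medians 0.25 and 0.12, 0 passed), and of 11 pericyte and smooth muscle genes 7 and 9 (medians 0.07 and 0.15, 0 passed). Of 4 erythroid genes all 4 lay above 0 (medians 0.45 and 0.65), and Alas2 and Slc4a1 passed at 2500 ppm. The meningeal genes Aldh1a2 and Fmod, and Ttr of the choroid plexus, also rose at 2500 ppm, while the striatal genes Tac1 and Meis2 fell. Ttr and Meis2 passed between the doses as well. Of all tested probe sets, 0.686% passed at 2500 ppm against control and 0.322% between the doses. The 10 astrocyte genes had medians of 0.04 and 0.01 and the 11 immature neuron genes -0.02 and -0.12, with 0 passed.

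Oligodendrocyte progenitors, which divide at this age, were followed by 7 tested genes of 10 listed. Their median was -0.05 at 750 ppm and -0.01 at 2500 ppm against control and 0.19 between the doses, with 0 past the adjusted p, and 3 lay lower at 750 ppm than in control at an unadjusted p under 0.05 (4.37% of all tested probe sets). Between the doses 6 of 7 lay above 0, and 3 were higher at 2500 ppm at an unadjusted p under 0.05 (5.25% of all). The radial glia and progenitor list had medians of -0.02, -0.10 and -0.02, with 0 of 16 passed.

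The 7 member probe sets below the filter were 3 of Cdc20 and 1 each of Foxm1, Cit, Kif11 and Kif2c. The dim Foxm1 probe set read 6.07, 6.11 and 6.07 in control, 5.95, 6.01 and 5.96 at 750 ppm and 5.96, 6.01 and 5.84 at 2500 ppm. Both exposed groups lay below control without overlap, by 0.14 at 2500 ppm, and it was not tested.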
